A study of Mus musculus with 7 samples.

Results

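The regions described here are the background loci of a CUT&Tag experiment on mouse muscle stem cells (MuSCs): all peaks that MACS listed for the library made with a control IgG antibody. They were chosen by position in that list alone, as every IgG peak on chromosomes 1 to 19, which gave 640 of the 662 IgG peaks and 640 of 387007 MACS peaks in the series. Of the other IgG peaks, 13 lay on X, 3 on Y and 6 on the mitochondrial genome. CUT&Tag uses an antibody to bring a transposase to chromatin, and the series held 1 IgG library and 2 TRF2 libraries, from wild-type MuSCs of tibialis anterior muscle that the labels give as taken at day 3 of regeneration that an injection of notexin (a myotoxin) had started. The methods of the study give a shorter interval and also name gastrocnemius, and describe the mice as carrying a Pax7-driven Cre and a tdTomato reporter, so the time point and muscle are uncertain. Accessible chromatin was mapped by ATAC-seq, with a transposase that no antibody directs, in hind-limb MuSCs of uninjured mice, as 2 Control and 2 TRF2KO libraries labelled 0 h. In TRF2KO, a Cre driven by Pax7 and induced with tamoxifen deletes floxed Terf2 in MuSCs. Groups follow the titles, since every ATAC library, TRF2KO included, is entered as wild type in its genotype field. Animal ages per library and pooling of animals are not given in the sources used here.

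An IgG control has no chromatin target of its own, and its peaks mark places where fragments accumulate without a specific antibody. TRF2 is a protein of telomeres, the arrays of TTAGGG units at chromosome ends, and such units also occur inside chromosomes as interstitial copies. Mouse centromeres lie near the start of each chromosome and are flanked by major satellite, an AT-rich tandem repeat, most of which is not placed in the genome assembly. A tandem repeat is a stretch in which one unit is copied end to end, with the unit length called its period.

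Sequences of loci that lead the groups described below are shown first, since the results turn on which repeat each one carries. They were read from GRCm38, plus strand, 5′ to 3′. The peak with the highest fold of all, on chromosome 12, and 234 bases around the summit of the peak with the most fragments, on chromosome 2, carried a repeat of major satellite type, in which no telomeric unit occurs.
chr12:3109872-3110107: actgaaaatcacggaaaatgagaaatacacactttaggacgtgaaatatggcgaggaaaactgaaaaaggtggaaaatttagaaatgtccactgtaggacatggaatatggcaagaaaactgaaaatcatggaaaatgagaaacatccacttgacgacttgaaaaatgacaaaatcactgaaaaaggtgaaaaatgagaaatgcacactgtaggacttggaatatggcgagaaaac
chr2:98666825-98667058: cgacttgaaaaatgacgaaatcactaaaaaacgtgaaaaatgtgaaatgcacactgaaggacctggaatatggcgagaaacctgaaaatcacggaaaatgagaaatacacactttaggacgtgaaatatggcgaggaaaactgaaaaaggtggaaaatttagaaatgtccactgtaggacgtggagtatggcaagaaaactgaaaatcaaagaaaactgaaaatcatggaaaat
Other tandem repeats led the groups that were shared in other ways. A unit of 33 bp in D5Ertd579e led the peaks with ATAC signal and no TRF2 peak, and a unit of 18 bp near Arhgap25 led those with TRF2 peaks and no ATAC peak (capitals mark the first period in each). A GT repeat near Ndufs4 led the peaks found in the IgG library alone, and a 5-bp repeat on chromosome 17 was the one locus among the 10 highest folds that was neither telomeric nor of satellite type.
chr5:36630487-36630618: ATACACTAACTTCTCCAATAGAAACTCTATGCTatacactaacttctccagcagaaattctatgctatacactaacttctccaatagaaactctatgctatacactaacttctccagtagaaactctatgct
chr6:87457415-87457558: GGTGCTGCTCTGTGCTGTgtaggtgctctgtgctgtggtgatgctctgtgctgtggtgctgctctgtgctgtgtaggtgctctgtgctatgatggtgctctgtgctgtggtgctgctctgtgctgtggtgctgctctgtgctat
chr13:114393853-114393972: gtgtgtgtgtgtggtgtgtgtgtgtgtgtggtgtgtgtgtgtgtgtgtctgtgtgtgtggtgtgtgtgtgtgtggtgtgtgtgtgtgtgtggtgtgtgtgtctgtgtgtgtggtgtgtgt
chr17:13306005-13306124: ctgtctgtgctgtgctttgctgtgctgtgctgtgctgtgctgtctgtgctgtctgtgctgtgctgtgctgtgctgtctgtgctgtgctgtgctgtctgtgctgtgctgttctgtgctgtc

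IgG peaks were narrow, few and mostly weak. Together they covered 0.249 Mb, and their widths ran from 215 to 2508 bp with a median of 310. The fold, which is MACS's ratio of fragments at the summit to local background with 1 added to both, had a median of 5.57 and ran from 2.10 to 41.7. Because that fold and its p-value fix the number of fragments, the number at each summit could be solved, and it ranged from 5 to 5717 with a median of 10. A total of 373 peaks (58.3%, exact 95% interval 54.4 to 62.1) rested on at most 10 fragments. The signal was concentrated in a few loci, since the 10 peaks with the most fragments held 48.2% of all fragments counted at the 640 summits. The list ended at a -log10 q of 1.32, and the weakest members, near Dync1h1, Gm22992 and Dlgap1, had 5 fragments each and no peak in any other library. The lowest local background solved from the lists was 0.399 fragments in IgG and 0.312 and 0.285 in TRF2 replicates 1 and 2, and the median summit was 9 fragments in each of the 3 libraries over peaks with a -log10 p under 200. With 1 IgG library there is no replicate check of any IgG peak. The intervals below treat peaks as independent and cover counting error only.

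Tandem repeats were the main content of the IgG peaks. A region was called a tandem repeat when at least 70% of its bases matched the base 1 period further on, for some period up to 300 bp. By this measure 332 of 640 IgG peaks were tandem repeats (51.9%, 47.9 to 55.8), against 0.388% of windows of 310 bp that tile the chromosomes, counted in 1 window of every 1000 (7728 windows). The shares were 4.81% and 6.83% of the peaks of TRF2 replicates 1 and 2. At the median IgG peak, 31.8% of 31-base words occurred only once in the assembly (70.2% of 50-base words), while the median was 100% for the TRF2 peaks of both libraries and for windows. In the assembly, 81.6% of the median IgG peak was marked as repeat, against 4.4% and 4.36% in the TRF2 libraries. The GC content of IgG peaks had a median of 50.3%, which lay between the windows (41.6%) and the TRF2 peaks (59.4% and 57.9%).

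IgG peaks also lay in particular places. A gap of unknown bases stood within 50 kb of 85 peaks (13.3%, 10.7 to 16.2), against 0.634% of windows and 1.65% and 1.51% of TRF2 peaks. Within the first 1 Mb of known sequence, next to the centromere, lay 56 peaks (8.75%, 6.68 to 11.2), of which 17 were on chromosome 9 and 12 on chromosome 11. This compares with 0.751% of windows and 1.42% and 1.39% of TRF2 peaks. The last 1 Mb held 20 (3.12%, 1.92 to 4.79), against 0.776% of windows and 1.59% and 1.39% of TRF2 peaks. Of these 20, 9 were within 1 kb of the last known base. By contrast, the share of IgG peaks at start sites was near that of the genome. There were 120 peaks within 3 kb of a transcription start site (18.8%, 15.8 to 22), against 16.7% of all windows, and 67 were near the start of a protein-coding gene. The corresponding shares of TRF2 peaks were 61.8% and 56.1%. Of the remaining IgG peaks, 245 were intronic, 261 intergenic, 9 exonic and 5 in UTRs. Intronic peaks were 38.3% of all IgG peaks (34.5 to 42.2), against 33.5% of the sampled windows. Intergenic peaks were 40.8% (36.9 to 44.7), against 46.1%. The motif of a G-quadruplex (G4, a fold of G-rich DNA, searched as 4 G runs, each 3 or longer and 1 to 7 bases apart, on both strands) was found in 65 peaks (10.2%, 7.93 to 12.8), against 5.07% of windows and 25.3% and 20.7% of TRF2 peaks. All 22 telomeric IgG peaks hold this motif by their sequence.

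**Figure D1:**
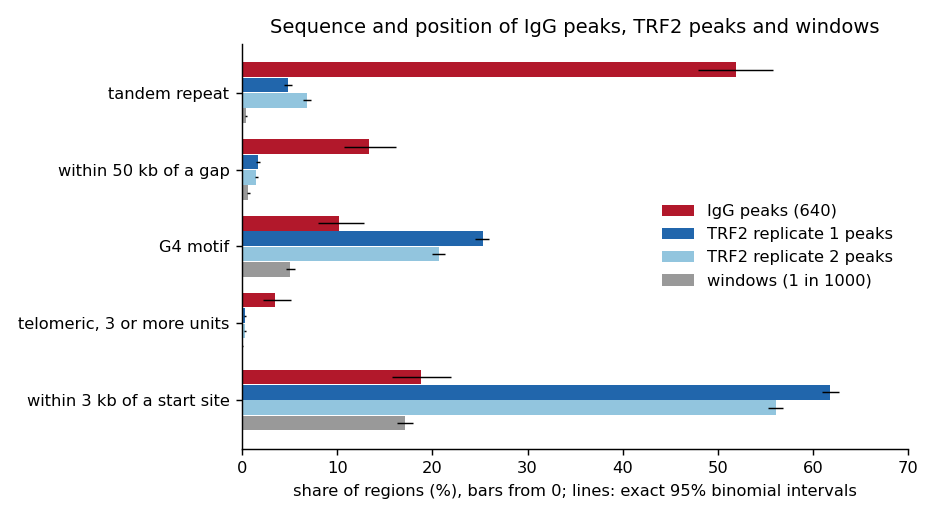
Share of regions (%, x axis) with each feature among IgG peaks, the peaks of the 2 TRF2 libraries and windows of 310 bp, with exact 95% binomial intervals. IgG peaks stand apart from both TRF2 lists in tandem repeats (51.9% against 4.81% and 6.83%) and lie near the windows in their share at start sites (18.8% against 17.1% in the sampled windows).

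Whether the TRF2 libraries held the same loci was asked next. A TRF2 peak of both libraries overlapped 235 IgG peaks (36.7%, 33.0 to 40.6), while 0.194% of all windows met both TRF2 lists. Either library overlapped 352 IgG peaks (55.0%, 51.1 to 58.9), against 0.56% of windows. Replicate 1 overlapped 268 and replicate 2 overlapped 319. No TRF2 peak was found at 288 IgG peaks. Sharing was more frequent among stronger IgG peaks, for both TRF2 libraries overlapped 31, 31, 57 and 116 of the peaks when the list was divided by fold, from low to high, into 4 parts of 160. IgG peaks that met both TRF2 libraries had a median of 18 fragments in IgG, those that met neither had 7. IgG peaks are wider than 310 bp in part and windows are not, so the window shares are a guide and not a matched comparison.

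Open chromatin was a second axis that split the loci. An ATAC peak in all 4 libraries overlapped 192 IgG peaks (30.0%, 26.5 to 33.7), against 2.8% of windows, and 385 (60.2%, 56.2 to 64) met no ATAC peak, against 94.5% of windows. Among IgG peaks with a -log10 q of 5 or more, these shares were 57.5% and 34%, and 62.9% met both TRF2 libraries. Few peaks lay between, with 29, 20 and 14 in 1, 2 and 3 libraries. The largest group, 225 peaks, was in the IgG list alone. Its peaks had 5 to 14 fragments, and its strongest member by fold (chr13:114393755-114394298, near Ndufs4, a subunit of respiratory complex I) had a fold of 8.93 and 14 fragments. Next came chr16:85604349-85604796, near Gm6278, with a fold of 7.95, and chr7:133685657-133685974, near Mmp21, a matrix metalloproteinase, with 7.83. A group of 131 peaks was in both TRF2 and all 4 ATAC libraries, with a median of 35 IgG fragments and 52 peaks near gaps. The 80 peaks with both TRF2 libraries and no ATAC peak were 80% tandem repeats, none near a gap. They were led by chr6:87457129-87458045, 5602 bp from a start of Arhgap25, with 49 fragments in IgG and 99 and 91 in TRF2. The next were chr6:137002783-137003266, with 32 in IgG and 28 and 22 in TRF2, and chr2:33933926-33934435, with 21 against 11 and 15. These numbers are not scaled by depth. The 34 peaks with ATAC in all 4 libraries and no TRF2 peak were led by chr5:36630487-36630754 and chr5:36660996-36661232, both in introns of D5Ertd579e, both built of 33-bp units and 30 and 211 bp from a gap of unknown bases. These had 29 and 19 fragments in IgG. The ATAC folds of the first were 36.6 and 35.6 in Control and 35.7 and 41.5 in TRF2KO. The third by fold, chr17:23531691-23531994, was not tandem and had 14 fragments, with ATAC folds of 4.14 and 4.68 in Control and 3.89 and 5.22 in TRF2KO.

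**Figure D2:**
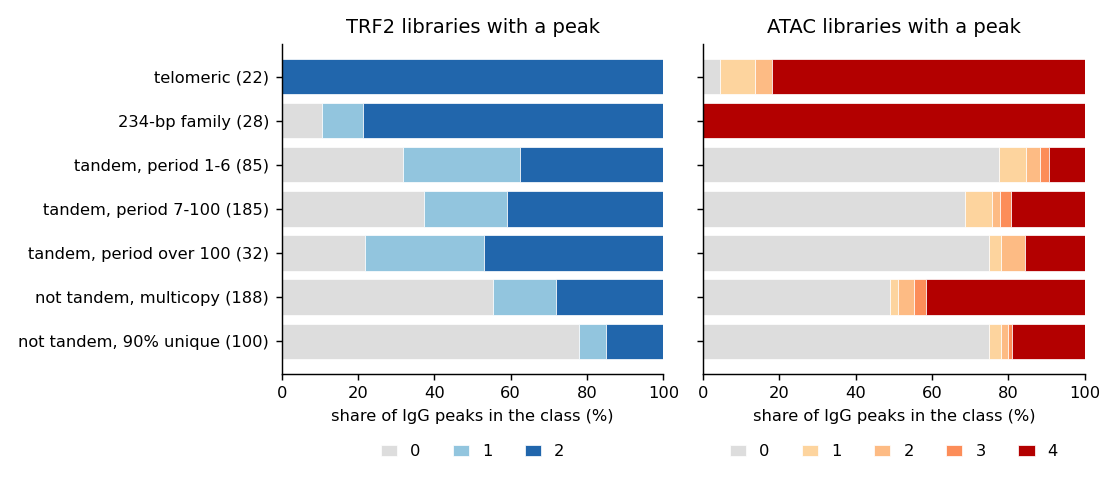
Share of the IgG peaks of each sequence class (%, x axis, number of peaks in brackets) by how many TRF2 libraries (left) and ATAC libraries (right) held an overlapping peak. Telomeric peaks and the 234-bp family are nearly all shared, while 78 of the 100 peaks in unique sequence without tandem repeats met no TRF2 peak.

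The strongest IgG loci belonged to a family of 28 peaks that align to each other and mostly repeat with a period within a few bases of 234 bp or of a simple fraction of it, although only 8 passed the tandem limit of 70%. Both the sequence and the period are those known for major satellite. This family made up 4.38% of the IgG peaks and 56.4% of the fragments counted at their summits. It sat on 8 chromosomes, with 17 of its peaks between 3000060 and 3038227 at the start of chromosome 9, inside the lincRNA gene Gm26870. The peak at chr2:98666253-98667321, over the start of the predicted gene Gm10800, had 5717 fragments in IgG and 3193 and 2508 in TRF2 replicates 1 and 2. The peak at chr9:3023429-3025936, over Gm10718, had 1439 in IgG against 765 and 552. At chr14:19416895-19419292, over Gm21738, the numbers were 1277 in IgG, 657 and 504 in TRF2. The locus with the highest fold (chr12:3109872-3110107, shown above) had 825, 436 and 409. The next folds were those of chr6:103649060-103649323, in an intron of Chl1, a neural adhesion molecule, with 719, 484 and 470 fragments, and of chr9:35305222-35305593, with 799, 408 and 331. IgG thus had more fragments than either TRF2 library at each of these, and the same held for all 22 family members with a peak in both. Of the other 6 members, 3 had a peak in 1 TRF2 library and 3 in none.

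Family members were also the extreme end of the ATAC lists. All 28 met a peak in all 4 libraries, although neighbouring members often met the same broad ATAC peak. At Gm10800 the ATAC folds were 4748 and 4271 in Control and 4998 and 5256 in TRF2KO. In each ATAC library 24 of the 28 ranked above the 99th percentile of its list by fold. The exceptions were the members at chr3:56575466, chr4:3089903, chr11:3101241 and chr12:67059174, which had 13 to 25 fragments in IgG. Their 31-base words were found at 1 place in the assembly at the median. The same was true of the words of the 2 members on chromosome 14, which ranked above the 99th percentile. The 4 exceptions were picked out after their values were seen.

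By fold, which is relative to local background, IgG did not exceed both TRF2 libraries at the strongest family members. The locus with the highest fold had 41.7 in IgG and 39.9 and 45.7 in TRF2 replicates 1 and 2. At Gm10800 the folds were 22 in IgG and 21.5 and 23.5 in TRF2, and at Gm21738 19.5, 20.5 and 22.8. The family medians were 5.25 in IgG (28 peaks) and 5.77 and 6.02 in TRF2 (23 and 24 peaks). These medians are over unlike sets, since members without a TRF2 peak drop out on the TRF2 side, so their order cannot be read. The 3 members without any TRF2 peak had IgG folds of 2.1, 2.37 and 2.46.

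At telomeric repeats, TRF2 had the larger fragment numbers. Peaks with at least 3 consecutive TTAGGG units numbered 22 (3.44%, 2.17 to 5.16), against 0.00512% of all windows, and they were exactly the members of another group of aligned peaks. A peak in both TRF2 libraries met every one of them. Of the 22, 8 lay at the right ends of chromosomes 1, 2, 10, 12, 13, 14, 16 and 19, within 100 bp of the last known base, and 14 were interstitial, 5 of them in introns. The longest runs, of 64, 47 and 40 units, were at the ends of chromosomes 14, 19 and 1. The peak at the end of chromosome 12 (chr12:120028669-120029014) had 248 fragments in IgG and 813 and 949 in TRF2 replicates 1 and 2. The one at the end of chromosome 14 (64 units) had 140 against 727 and 906. At the interstitial peak with the highest fold (chr8:83756753-83756985), 3835 bp from the start of Gm22024, IgG had 171 and TRF2 had 475 and 524. The peak in an intron of Flt1, a receptor of vascular growth factors (chr5:147611438-147611670), had 121 in IgG and 319 and 343 in TRF2. The weakest ratios belonged to chr1:182629503-182629743, in an intron of Capn8, a calpain protease, with 3 units inside the peak and a longest run of 9 in the locus it edges, and with 10 fragments in IgG and 8 and 11 in TRF2. TRF2 exceeded IgG at 21 of the 22 peaks in replicate 1 and at all 22 in replicate 2.

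The ratios of TRF2 to IgG fragments at telomeric peaks and in the 234-bp family did not overlap, while those of the other tandem and multicopy peaks overlapped both. At telomeric peaks it had a median of 3.35 in replicate 1 (range 0.80 to 6.78) and 3.88 in replicate 2 (1.1 to 8.11). In the 234-bp family the medians were 0.5 (0.333 to 0.687) and 0.392 (0.207 to 0.654) over 22 peaks. Over all 235 shared IgG peaks the medians were 0.900 and 1.00. Chromosome ends (8 peaks) had medians of 4.01 (2.91 to 6.78) and 5.22 (3.6 to 8.11). Interstitial telomeric peaks (14) had medians of 2.94 (0.8 to 4.17) and 3.81 (1.1 to 4.7), with ranges that overlap those of the ends. The numbers are not scaled by library depth, which would shift all ratios of a library together and leave the order of the classes as it is. The IgG side of these ratios also chose the members, so they are a description and carry no test.

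**Figure D3:**
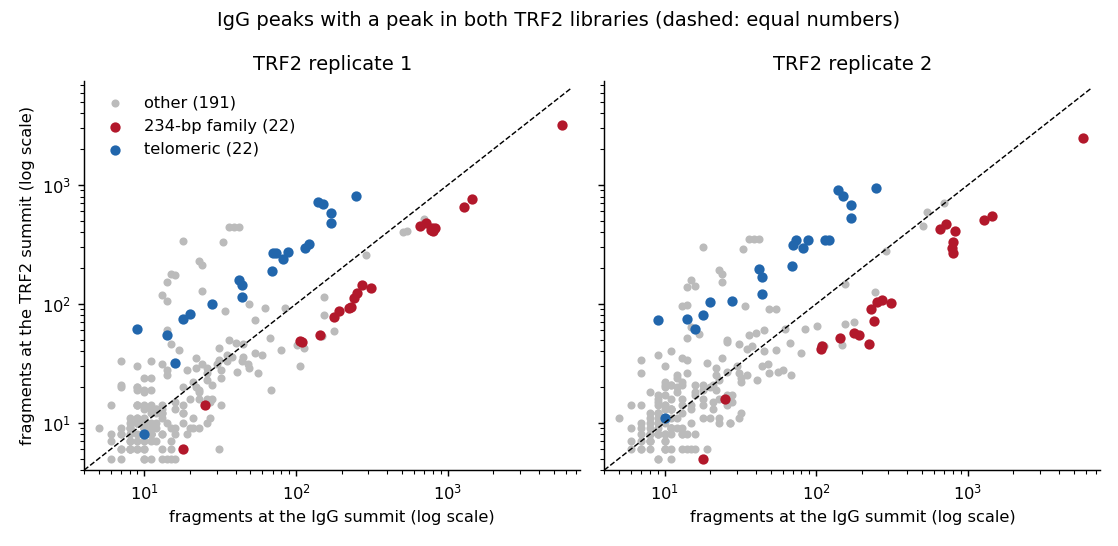
Fragments at the summit of each IgG peak (x axis, log scale) against those at the summit of the overlapping peak in each TRF2 library (y axis, log scale), for the 235 IgG peaks shared with both. Telomeric peaks (22) lie above the dashed line of equal numbers, apart from 1 peak in replicate 1, and the 22 shared members of the 234-bp family lie below it.

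Most telomeric repeats of the assembly had no IgG peak. Runs of at least 3 units, joined where closer than 500 bp, formed 367 loci on chromosomes 1 to 19, and an IgG peak met 22 (5.99%). TRF2 replicates 1 and 2 met 35 and 42. Over all loci, ends included, the share was higher for longer runs. None of 113 loci with 3 units had an IgG peak, which allows a share of up to 3.21% (exact upper limit). An IgG peak met 9 of 103 loci with 6 to 9 units and 10 of 93 with 10 or more. Of these 10, 8 were at chromosome ends, so run length and position at an end were not separated. The longest runs of all, of 88 and 75 units at the ends of chromosomes 7 and 18, had no IgG peak. There were 10 loci with a peak in both TRF2 libraries and none in IgG, and no locus with an IgG peak and no TRF2 peak. Of the 19 right ends, 18 carried telomeric units in the last 1 kb, and 8 of those had an IgG peak, 14 a peak in TRF2 replicate 1 and 13 in replicate 2. The end of chromosome 3 had no IgG peak, with TRF2 folds of 33.9 and 40.2. Chromosome 4 had the reverse sequence pattern: no unit in its last 1 kb, and an IgG peak (fold 28.7) over a 24-bp tandem repeat, with 154 fragments in IgG and 81 and 68 in TRF2.

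**Figure D4:**
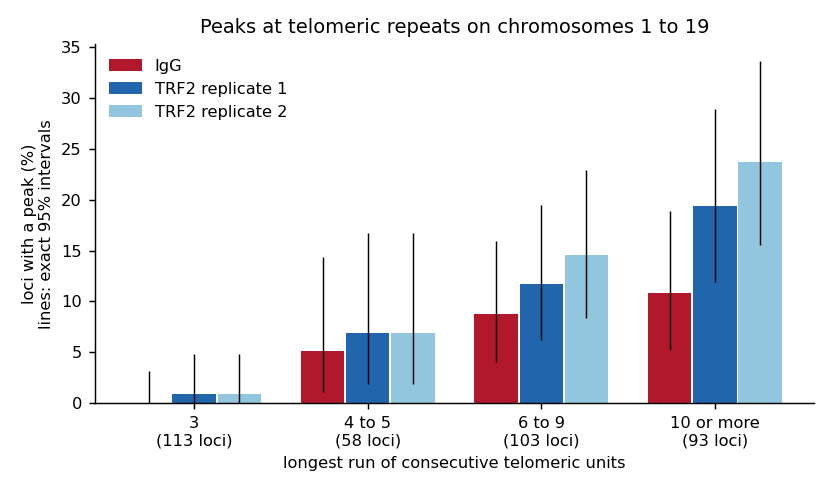
Share of telomeric loci with a peak (%, y axis, exact 95% binomial intervals) by the longest run of consecutive units at the locus (x axis, number of loci in brackets), for IgG and the 2 TRF2 libraries. The share is higher for longer runs in all 3 libraries, and in IgG it goes from 0 of 113 to 10 of 93. Loci at chromosome ends are included and make up 8 of those 10, so run length is not separated from position at an end.

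Other tandem repeats were weaker and more often found in IgG without ATAC signal. Of the 332 tandem peaks, 104 had a period up to 6 bp, 188 a period of 7 to 100 bp and 40 a longer one. Without the telomeric peaks and the 234-bp family, these numbers were 85, 185 and 32. The commonest short unit was AC (GT on the other strand), in 40 peaks on 16 chromosomes with 6 to 18 fragments. All AC peaks lacked ATAC signal in at least 1 library and 38 of them in all 4, and 8 of 40 met both TRF2 libraries. The ACAGC unit (GCTGT on the other strand) behaved otherwise, since both TRF2 libraries met 20 of its 23 peaks and at least 1 met all 23. Its strongest locus, chr13:74528579-74530666, 2860 bp from the start of the pseudogene Gm5626, had 536 fragments in IgG and 409 and 590 in TRF2. The next, chr3:60045147-60045851 13271 bp from the start of Aadac, an arylacetamide deacetylase, had 288 in IgG and 260 and 280 in TRF2. These loci were named after their values were seen. An array of 5-bp period on chromosome 17, chr17:13305955-13306257, matched itself at 69.8% of bases and so fell just short of the tandem limit. It was among the 10 highest folds at 29.4, with 154 fragments in IgG and 115 and 146 in TRF2. Among the 5 peaks with the purest tandem structure, the end of chromosome 19 and that of chromosome 12 were telomeric. The others were a 68-bp repeat in Vps45, a regulator of vesicle fusion (13 fragments in IgG, 12 and 8 in TRF2), a 64-bp repeat near Ntsr2 and a 72-bp repeat near Plekhs1. The last 2 had 8 and 6 fragments and no TRF2 or ATAC peak.

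Peaks without tandem structure, the 234-bp family left out, were divided by how much of their sequence is unique. In 188 peaks under 90% of the 31-base words were unique to one place in the genome, and in 100 at least 90% were. The unique ones had a median of 6 fragments. Both TRF2 libraries met 15 of the 100 and neither met 78. Repeats with many copies, most of them not tandem, formed 3 groups of 17, 11 and 7 aligned peaks, on 10, 10 and 6 chromosomes, whose median word recurred 934, 487 and 140 times. These had medians of 7, 6 and 7 fragments, and no peak in the 3 groups met both TRF2 libraries.

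Some loci without a telomeric run had many more fragments in TRF2 than in IgG. A cluster of 4 IgG peaks between chr17:39843116 and 39848247, at Gm26917, Gm42418 and AY036118, where the assembly is known to hold a copy of the 45S ribosomal RNA precursor, had 33 to 42 fragments in IgG. The TRF2 peaks over it had 448 and 350 fragments at 3 of the 4 peaks (1 broad TRF2 peak in each library) and 330 and 290 at the remaining one. Their folds were alike, from 2.76 to 3.6 in IgG and from 2.39 to 3.65 in TRF2. Its ATAC folds were 2159 and 1823 in Control and 2286 and 2146 in TRF2KO. Near Lars2, the mitochondrial leucyl-tRNA synthetase, chr9:123461837-123462178 had 23 fragments in IgG and 228 and 194 in TRF2. These loci were named after their values were seen. Mitochondrial sequence copied into chromosomes met 3 IgG peaks (0.469%, 0.0968 to 1.36), against 0.00172% of all windows. The longest match, 588 bp at 99.9% identity, was chr1:24612647-24613234, over Gm10222, with 24 fragments in IgG, 28 in TRF2 replicate 1 and no peak in replicate 2. The others, chr3:6049644-6049906 and chr10:85025974-85026219 near Ric8b, matched at 85.6% and 84.9%, and had 9 and 17 fragments in IgG. All 3 met ATAC peaks in the 4 libraries.

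Few genes collected several IgG peaks. Peaks closer than 10 kb formed 591 loci, of which 20 held more than 1 peak. Besides the array of 17 on chromosome 9, the largest were 7 peaks between chr11:3140004 and 3168987 at Sfi1, a centrin-binding protein of centrosomes, with 60 to 101 fragments, all 7 with ATAC in all 4 libraries and 2 with both TRF2 libraries. Clusters of 4 lay at chr10:3109642-3117023, a 19-bp repeat near Gm3318 with 107 to 177 fragments, and at chr10:58223904-58232228 around Duxf3, a member of the double-homeobox cluster, with 27 to 37. The gene bodies with the most IgG peaks were Gm26870 with 17, Sfi1 with 9, and C130026I21Rik and Tmem267 with 4 each. Gene bodies with 3 peaks included 2700054A10Rik, AC174800.1, C230088H06Rik, Gm10717, Gm11168 and Gm26624. Myo16, an unconventional myosin singled out after its values were seen, also had 3, with 6 to 16 fragments and no peak with ATAC in all 4 libraries. Several of these genes overlap one another and share peaks. At start sites of protein-coding genes the highest folds were those of Gm10800 (22), Gm21738 (19.5), Gm10718 (15), Aida (14.9) and Gm11168 (12.9). All but Aida, a gene of axis formation, belong to the 234-bp family. The Aida peak, chr1:183299135-183299575, had 36 fragments in IgG and 50 and 55 in TRF2. Of the 120 start-site peaks, 61 were nearest to a protein-coding gene, 22 to a processed pseudogene and 12 to a lincRNA. None lay within 3 kb of the 19 marker genes examined, Pax7 and Myf5 of MuSCs included. Only 67 of the 640 IgG peaks were near the start of any protein-coding gene. A set of 19 genes is therefore too small to show whether markers differ from other genes.

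IgG loci made up most of the strongest TRF2 peaks. Only 2.22% and 2.10% of all TRF2 peaks in replicates 1 and 2 met an IgG peak. Among the 20 TRF2 peaks with the highest folds, however, 16 did in each library, and among the highest 100 it was 56 and 57. Of the highest 1000 it was 95 and 105. The IgG peaks met by those 20 were telomeric at 12 and 13 peaks and of the 234-bp family at 3 in each library. At the 22 telomeric IgG peaks the median TRF2 fold was 31.2 and 37.4, against 22.4 in IgG.

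**Figure D5:**
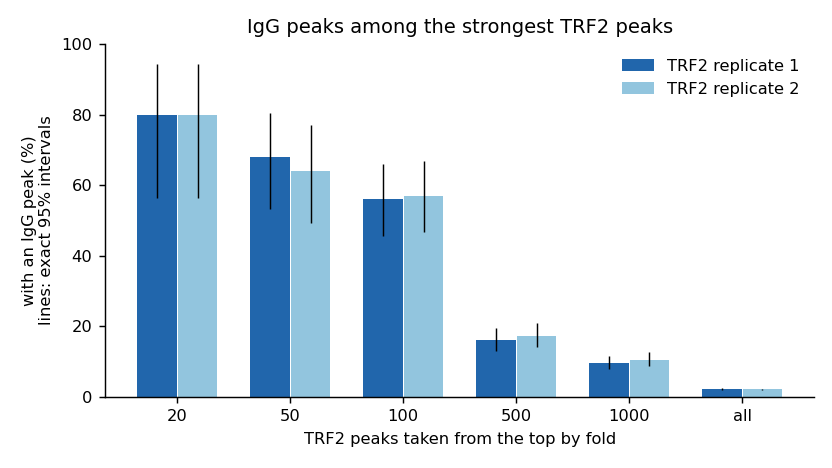
Share of TRF2 peaks that met an IgG peak (%, y axis, exact 95% binomial intervals) when the peaks are taken from the top of each library's list by fold (x axis). The share falls from 80% of the highest 20 in both libraries to 2.22% and 2.10% of all peaks.

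Few of the loci entered the authors' consensus, which met 73 of the 640 IgG peaks (11.4%, 9.05 to 14.1). Of these 73, 16 were among the 225 peaks without a TRF2 or ATAC MACS peak, so consensus regions also lay where no ATAC MACS peak did. A consensus region of Control or TRF2KO overlapped 29 of the 192 IgG peaks with ATAC in all 4 libraries (15.1%, 10.4 to 21). The same was true of 95.7% of the Control replicate 1 ATAC peaks that were met in the other 3 libraries, and of 91.1% of those in the top 1% by fold. No member of the 234-bp family and 1 telomeric peak of 22 lay in a consensus region. The methods, in a section on both assays, describe removal of blacklisted regions ahead of the consensus. No blacklist was used here, and its part in these counts was not tested.

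Loss of TRF2 was compared at these loci last. In the Control libraries 220 and 225 IgG peaks had an ATAC peak (222.5 ± 3.54, SD, n = 2), and in TRF2KO 216 and 218 (217 ± 1.41, SD, n = 2). With these MACS peaks the groups did not overlap, but with GoPeaks (195 and 208 against 194 and 198) and SEACR regions (154 and 149 against 147 and 157) they did, and with SEACR the difference turned to 0.5. The difference in MACS peaks was -5.5, or -12 with ATAC peaks at a -log10 q of 5 or more, and for -5.5 the exact two-sided permutation p was 0.333, the smallest that 6 assignments can give (0.667 after Benjamini-Hochberg adjustment over 2 tests). At the 192 loci with ATAC in every library, ATAC folds were ranked within each library, and the median percentile was 76.6 and 82.8 for the Control libraries against 76.7 and 79.7 for TRF2KO. These overlapped, with a difference of -1.48 percentile points and an exact permutation p of 1. List length differed between the genotypes as well, with 87394 and 98558 ATAC peaks in Control and 83039 and 82556 in TRF2KO. Of all ATAC peaks, 0.214% and 0.193% met an IgG peak in Control and 0.218% and 0.224% in TRF2KO. The lower number of IgG peaks with an ATAC peak in TRF2KO therefore came with shorter lists and not with a lower share of them. At telomeric loci with ATAC in all libraries (18), the Control libraries had median ATAC folds of 29.6 and 23.6 and the TRF2KO libraries 27.3 and 31.7. At the 28 members of the 234-bp family these medians were 1103 and 1104 for Control and 1300 and 1349 for TRF2KO. This was not tested and rests on ATAC peaks that several members share.

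The labelled cell type was checked at the ATAC libraries. All 8 MuSC markers examined, Pax7 among them, had a peak at their start in all 4 libraries, with folds from 20.2 to 130. Itga7 had 73.4 and 68 in Control and 35 and 32.5 in TRF2KO. Cd34 went the other way by a narrow margin, with 23 and 20.2 in Control and 28.4 and 23.2 in TRF2KO. The groups overlapped at the other MuSC markers. How often the groups separate over all start sites was not counted, so these differences are given as values only. Of 11 markers of other cells, 4 had a peak in all 4 libraries. Kdr was low, with 6.67 and 5.76 in Control and 7.09 and 7.49 in TRF2KO. Cd68 was also low, with 8.05 and 7.38 in Control and 4.57 and 4.54 in TRF2KO, while Pdgfra reached 43.2 to 48.9. Acta2, of smooth muscle, had 51.8 and 43.7 in Control and 25.8 and 26.3 in TRF2KO. The pericyte gene Rgs5 had a peak in both TRF2KO libraries (6.18 and 3.4) and in neither Control, and Cdh5 had one in Control replicate 2 (3.42). Ptprc, Itgam, Adgre1, Pecam1 and Ly6a had none in any library. Their part in the results at IgG loci was not tested.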

How the data were processed

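Peak lists of 7 libraries were used: CUT&Tag with IgG (1) and TRF2 (2), and ATAC-seq of Control (2) and TRF2KO (2), grouped by their titles. Per the methods, in a section titled for both assays whose opening sentence names CUT&Tag samples, reads were trimmed, aligned to mm10 with Bowtie2 in local mode, stripped of duplicates, and kept when uniquely aligned and properly paired. Reads that fit several repeat copies equally well are the ones such a filter acts on, and its cut-off is not given in the sources used here. MACS peaks were called per library by the authors, and each carries a deposited fold ratio and deposited -log10 p and q values. The deposited lists do not state whether IgG served as the MACS control, and no ATAC shift is stated. SEACR regions carry the authors' summed signal from normalized coverage (positions only were used), and GoPeaks regions carry positions. The authors' consensus regions carry a deposited DiffBind score, which was not used. They are pooled by genotype. The design text calls the ATAC replicates biological; the origin of the TRF2 replicates is not given in the sources used here, so their spread may be technical.

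Overlap meant at least 1 shared bp. Summit fragments were solved from fold = (fragments + 1)/(background + 1) and the Poisson tail p. Where a TRF2 peak was met, its own summit is given. Windows of 310 bp tiled chromosomes 1 to 19 without unknown bases (7728379 windows). A gap was a run of at least 100 unknown bases. Sequence came from GRCm38, whose coordinates mm10 shares, and genes from GENCODE M21, on which coordinates count from 1. Mitochondrial matches were blastn alignments covering at least 50 bp at 80% identity. Groups of aligned peaks shared an alignment of at least 100 bp and 80% identity over 50% of the shorter peak, chained through common members. Ranks were percentiles of fold within a library's list. Shares carry exact Clopper-Pearson 95% intervals. Genotype means were compared by exact two-sided permutation tests over 6 assignments. The functions were tested on simulated data. Scripts ran in Python 3.11.15 with NumPy 2.4.6, pandas 2.3.3, SciPy 1.17.1 and BLAST+ 2.17.0. Read totals were not analysed here. Sequences of the telomeric peaks are not reported here.

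Peaks were named by rule: the 10 highest folds, the 3 highest of 4 sharing classes, the 5 with most telomeric units, up to 5 mitochondrial matches, the 5 largest clusters, up to 10 genes with at least 3 peaks, the 5 protein-coding starts with the highest folds, the 5 purest tandem repeats and the 3 lowest -log10 q. The members, lists and rules were chosen with earlier results of these data known. The alternatives were a stricter q, other overlaps, other callers, left-out libraries, X and Y, clusters counted once and other motif settings.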

Additional observations from a re-analysis of the deposited data

Results flagged for a closer look

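The mitochondrial genome lay outside the chromosomes compared, and 6 IgG peaks were found on it. They covered 7945 of its 16299 bp with folds from 2.31 to 3.25. TRF2 replicates 1 and 2 had 6 and 7 peaks there, and each ATAC library had 1. These peaks are given as values, because the IgG library is the control itself and no lower level was measured.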

How the results depend on the processing

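Of the results recomputed under each alternative, 45 values moved by less than their counting error or kept their direction, 30 moved further and 3 reversed. When only IgG peaks reaching a -log10 q of 5 were kept, both TRF2 libraries met 62.9%, either 82.2%, all 4 ATAC libraries 57.5% and none of them 34%, with 25.1% at start sites, 8.11% telomeric, 15.1% with a G4 motif, 61% tandem and a median of 21.2% unique words. Counting clusters within 10 kb once gave 25% with ATAC in all 4, 64.6% with none and 15.2% at start sites. Both and either TRF2 library met 30.5% and 49.7% when 50% of the IgG peak had to be covered, 32% and 48.6% when its summit did, and 26.1% and 40.5% with TRF2 peaks at a -log10 q of at least 5. Leaving out 1 TRF2 library gave 41.9% to 49.8% for each. No ATAC region was met by 66.2% with GoPeaks and 69.8% with SEACR, and SEACR regions of all 4 libraries met 18.8%. Start sites held 9.53% within 1 kb and 10.5% for protein-coding genes. G4 motifs with loops up to 12 bases were in 15.5%, tandem repeats at an 80% limit made up 38%, and unique 50-base words had a median of 70.2%.

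The genotype difference in the number of IgG peaks with an ATAC peak was 0.5 with SEACR regions, and -8 to -3 when 1 library was left out. The difference in median percentile ran from -4.55 to 1.58 when 1 library was left out, and was 1.58 without Control replicate 2 and 0.0412 without TRF2KO replicate 1. With the replicate numbers as a block, these differences were -5.5 (exact p 0.5, the smallest that 2 pairs allow) and -1.48 (exact p 1). Deviations of same-numbered libraries correlated at 0.213 over 192 peaks, but 2 pairs cannot show a pairing. The causes were not tested. With a median of 10 fragments a peak, a missing peak in another library does not show that signal was absent there.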
